A study of Mus musculus with 6 samples.

Results

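The insulin-like growth factor (IGF) axis was read in RNAseq of immortalized mouse pancreatic fibroblasts, as the 10 genes Igf1, Igf2, Igf1r, Igfbp2, Igfbp3, Igfbp4, Igfbp5, Igfbp6, Igfbp7 and Pappa. They were chosen by name, and all 10 of them were found among the 14831 genes of the count table. The data hold 6 libraries, 3 labelled WT and 3 labelled KO, the latter with the genotype Gli2-/-;Gli3-/-. Each library came from its own confluent well of fibroblasts grown in DMEM with calf serum and antibiotics, and the strain of both groups is given as Mixed. According to the study's methods, such lines grew out of the pancreas of adult mice with floxed Gli alleles and were immortalized. The KO lines received adenoviruses carrying Cre and eGFP, and the control lines an eGFP adenovirus and a dsRed lentivirus. Both groups therefore carried the floxed background and a viral infection. How many lines or clones the wells came from is not given in the sources used here, so the p-values below measure the spread between wells, which may be technical.

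IGF1 and IGF2 are secreted ligands that signal through the receptor tyrosine kinase IGF1R, mainly via insulin receptor substrates, PI3K and AKT, and via RAS and ERK. In the extracellular space they are held by IGF binding proteins (IGFBPs), which lengthen the life of the ligands and can block or deliver them to the receptor. Proteases such as PAPP-A, the product of Pappa, cleave some IGFBPs and free the ligand. Fibroblasts are a main source of these secreted proteins in connective tissue.

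The promoter sequences of the 4 binding protein genes that passed both limits of the test are shown first, since these genes moved in opposite directions. Each line holds the 120 bases just before a RefSeq transcription start on GRCm38.p6, read 5′ to 3′ on the strand of the gene. Capitals mark 3 promoter motifs searched on both strands, the GC box GGGCGG, the TATA box TATAAA and the CCAAT box CCAAT, which share no overlapping letters. The Igfbp2 stretch lies at chr1:72824360-72824479 (plus strand), Igfbp3 at chr11:7213924-7214043 (minus strand), Igfbp4 at chr11:99041124-99041243 (plus strand) and Igfbp5 at chr1:72874866-72874985 (minus strand).
Igfbp2: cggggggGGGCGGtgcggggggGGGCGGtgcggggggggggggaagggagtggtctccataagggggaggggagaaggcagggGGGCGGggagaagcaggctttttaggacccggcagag
Igfbp3: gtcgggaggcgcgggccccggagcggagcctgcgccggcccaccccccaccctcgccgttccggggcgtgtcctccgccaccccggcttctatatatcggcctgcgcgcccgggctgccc
Igfbp4: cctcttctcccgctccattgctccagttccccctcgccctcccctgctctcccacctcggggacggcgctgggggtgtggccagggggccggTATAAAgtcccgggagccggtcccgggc
Igfbp5: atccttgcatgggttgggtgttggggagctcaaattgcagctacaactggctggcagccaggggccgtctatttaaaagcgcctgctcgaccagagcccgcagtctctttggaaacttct

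RefSeq gives 2 start windows for Igfbp2, and the stretch of the first is shown. It holds 3 GC boxes, and the window of the second (chr1:72825137-72825436) holds none of the 3 motifs. The Igfbp4 stretch holds a TATA box, and the Igfbp3 and Igfbp5 stretches hold none of the 3 motifs. No relation between motifs and the direction of change was tested. Windows of members under the fold limit held 4 GC boxes for Igfbp7, 2 for Igf1r and 1 CCAAT box for Igf1. The Igfbp6 window held 1 TATA box and 2 CCAAT boxes. Only these exact letters were searched, so variants such as tatata in the Igfbp3 stretch and tatttaaa in the Igfbp5 stretch were not marked. Over 32851 RefSeq promoter windows of 300 bases, 35.7% held a GC box, 13.6% this TATA box and 37.4% a CCAAT box. The GLI motif GACCACCCA, the letters recognized by GLI factors, was searched in the same way and occurred in 0.253% of all windows. It was found in 0 windows of the 9 members for which a window was at hand, a statement on these letters in these windows only. Igfbp2 and Igfbp5 are neighbours on chromosome 1, where their annotated ends lie 5458 bases apart and face each other.

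The targeted genes were read first. Counts of Gli2 were 809, 944 and 868 in the labelled WT wells and 1932, 2316 and 1926 in the labelled KO wells. Counts of Gli3 were 392, 416 and 398 against 1434, 1637 and 1404. Both were higher in every library labelled KO (log2 fold change 1.05 ± 0.04 (SE) for Gli2 and 1.71 ± 0.05 for Gli3, adjusted p = 8.01e-10 and 2.10e-11 by edgeR's quasi-likelihood test), which goes against the labels. The study describes its lines as screened by qPCR and western blot for loss of the targeted genes, and whether this covered the sequenced wells is not given in the sources used here. It also reports that qPCR of Ccl5, Il6 and Il11, genes not read here, gave the changes seen in its RNAseq. Counts of a whole gene do not show whether a floxed exon is missing. The groups are therefore called the labelled WT wells and the labelled KO wells, and each direction below is only as good as these labels. Library totals ranged from 31728420 to 33905521 counts in the labelled WT group and from 32781730 to 41035931 in the labelled KO group, where 3 counts correspond to between 0.0720 and 0.0957 CPM, the counts of a gene scaled to the normalized library size.

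The defining fibroblast genes Col1a1, Col1a2 and Vim were abundant in all libraries, while Thy1 had 4, 1 and 0 counts in the labelled WT wells and 19, 15 and 9 in the labelled KO wells, too few to be tested. Of 9 listed fibroblast markers, 8 were in the count table, and Pdpn was not. The summed level of the 8 was 44822 to 47236 CPM in the labelled WT wells and 36783 to 38533 CPM in the labelled KO wells. Of the 7 tested, 4 (Col3a1, Pdgfra, Pdgfrb and Dcn) fell. By the same limits, given below, 11.6% of all genes rose and 6.10% fell. Mesothelial markers also moved with the groups. All 5 of them (Msln, Lrrn4, Upk1b, Upk3b and Wt1) rose, with a summed level of 22.6 to 25.6 CPM in the labelled WT wells and 291 to 293 CPM in the labelled KO wells. Of 7 listed epithelial markers, 4 were in the count table, and 2 of the 3 tested rose (Krt7 and Cdh1). The other, Sox9, was lower without reaching the fold limit (-0.50 ± 0.08 on the log2 scale). The summed level was 12.8 to 13.8 CPM against 29.5 to 30.4 CPM. Most of this rise was Krt7, with means of 4.38 and 23.1 CPM, while Cdh1 had 0.34 and 0.719 CPM. Krt8 had at most 2 counts in each library labelled WT and at most 12 in each labelled KO. Of 6 listed macrophage markers, 4 were in the count table and tested, and none of them passed the limits. Their summed level was 55.6 to 60.8 CPM in the labelled WT wells and 52.4 to 54.1 CPM in the labelled KO wells. Of single genes measured for other cell types, acinar Cela1 rose by 0.87 and Cnn1, of pericytes and smooth muscle, by 0.72 on the log2 scale. Acta2 (0.01) and endothelial Vwf (-0.44) did not pass. Only 1 of 5 listed acinar markers, 1 of 5 endothelial and 2 of 6 pericyte and smooth muscle markers were in the count table. In such bulk RNA, a change in the number of cells of a type and a change in RNA per cell cannot be told apart, and the part of the mesothelial and epithelial markers in the results below was not tested.

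In the labelled KO wells, Igfbp2, Igfbp3 and Igfbp4 rose, while Igf2 and Igfbp5 fell. Pappa also rose in the edgeR fit, a call that was lost in DESeq2 (adjusted p = 0.132) and when any of 4 libraries was left out. A gene was counted as changed at a Benjamini-Hochberg adjusted p under 0.05 over all 14289 genes tested and at least a 1.5-fold difference, so 6 of the 10 members changed, 4 upward and 2 downward, and 5 of the 10 changed in DESeq2. By the same rule 17.7% of all genes changed, 11.6% upward and 6.10% downward. The other 4 members, Igf1, Igf1r, Igfbp6 and Igfbp7, passed the limit on adjusted p and stayed under the limit on fold, and 58.7% of all genes passed the first of these limits. All 10 members had groups that did not overlap, as had 64.2% of all genes. At a limit of 2-fold, 4 of the members changed, beside 10.2% of all genes. The median log2 fold change of the members was 0.41 and their median absolute log2 fold change 0.747, against 0.00 and 0.219 over all genes tested.

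**Figure D1:**
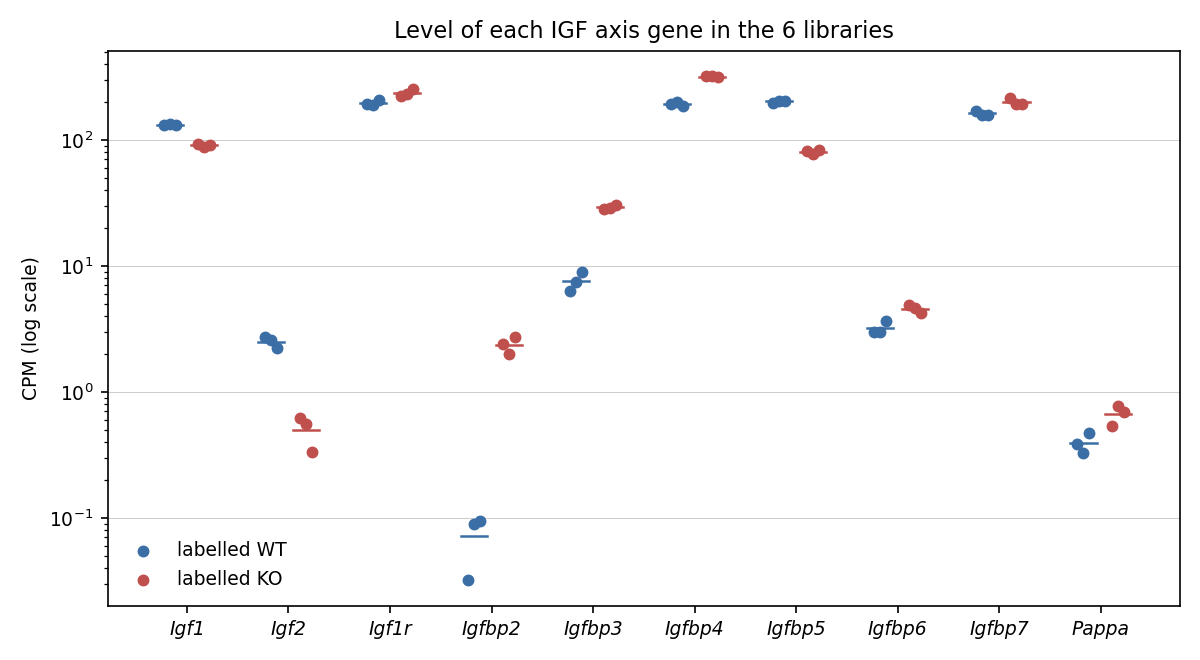
CPM of each of the 10 IGF axis genes (log axis) in the 3 libraries labelled WT and the 3 labelled KO; points are libraries and short lines group means. In each gene the points of one colour lie apart from those of the other, most widely for Igfbp2, whose means were 0.0718 and 2.37 CPM.

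Of the ligands, Igf2 fell and Igf1 was lower by less than the fold limit. Igf2, the ligand best known from fetal growth, lies in an imprinted domain at chr7:142650766-142666816 (minus strand, GENCODE M21 on GRCm38). It had 86, 86 and 71 counts in the labelled WT wells and 22, 23 and 11 in the labelled KO wells. All labelled KO libraries were lower, and replicate 3 was the lowest. Mean levels were 2.51 ± 0.264 CPM (SD, n = 3) and 0.502 ± 0.15 CPM, and the log2 fold change was -2.30 ± 0.21 (SE, adjusted p = 9.75e-07 by edgeR). With so few reads, the pooled ratio of labelled WT over labelled KO was 4.94, with a 95% exact interval of 3.68 to 6.73 that covers counting error only. Of the 5723 exonic bases of Igf2, 62.8% are shared with Gm49394 on the same strand and 1.71% with the antisense gene Igf2os, neither of them analysed here, so the Igf2 level is uncertain to the extent that the counting divided or dropped such reads.

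Igf1 (chr10:87858265-87937042, plus strand) encodes the main postnatal ligand. It had 4138, 4459 and 4202 counts in the labelled WT wells against 3303, 3657 and 3017 in the labelled KO wells. The levels were tight within each group, at 132 ± 0.777 CPM (SD, n = 3) and 90.8 ± 2.81 CPM. The log2 fold change of -0.54 ± 0.03 (SE, adjusted p = 1.96e-08 by edgeR) lies just inside the limit of 0.585 on the log2 scale. Igf1 was the more abundant ligand in both groups. Per kilobase of exon, the ratio of Igf1 to Igf2 was 27.8, 30 and 34.2 in the labelled WT wells and 86.8, 91.9 and 158 in the labelled KO wells. These ratios did not overlap (two-sided exact permutation test p = 0.1, the smallest that 3 against 3 libraries allow). Since Igf2 was lower by more than Igf1, the ratios restate the differences of the single genes and are no further test. In the labelled KO wells they rest on 22, 23 and 11 Igf2 counts, and the shared Igf2 exons leave their size uncertain in both groups.

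The receptor gene Igf1r (chr7:67952827-68233668, plus strand) had 6029, 6297 and 6657 counts against 7959, 9616 and 8437. The difference was small, with 196 ± 10.8 CPM (SD, n = 3) in the labelled WT group and 237 ± 16.3 CPM in the labelled KO group, a log2 fold change of 0.27 ± 0.05 (SE, adjusted p = 4.31e-04 by edgeR). The IGF2 scavenging receptor Igf2r, which takes the ligand into lysosomes and does not belong to the 10 genes, went the other way. Its counts were 23478, 26812 and 26950 against 11483, 13688 and 12390, and it fell by 1.22 on the log2 scale (SE 0.06, adjusted p = 1.42e-09). Per kilobase of exon, Igf2r exceeded Igf1r by a ratio of 7.34 ± 0.329 (SD, n = 3) in the labelled WT wells and of 2.61 ± 0.0408 in the labelled KO wells (exact permutation test p = 0.1). With Igf2r lower and Igf1r higher in every library labelled KO, this ratio had to separate the groups and is no further test. The insulin receptor gene Insr, which can pair with IGF1R in hybrid receptors, did not pass the test, with a log2 fold change of -0.01 ± 0.05 (adjusted p = 0.83), and its sign changed under upper-quartile and total-count scaling.

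Of the 6 binding protein genes, 3 rose, 1 fell and 2 differed by less than the fold limit, beside 11.6% upward and 6.10% downward among all genes. Igfbp2 (chr1:72824503-72852474, plus strand), a binding protein with a preference for IGF2 and an integrin binding motif, showed the widest difference. It had 1, 3 and 3 counts in the labelled WT wells and 85, 83 and 90 in the labelled KO wells. It was thus at or near the floor of 3 counts in one group and at about 2 CPM in the other. The mean levels were 0.0718 ± 0.0346 CPM (SD, n = 3) and 2.37 ± 0.368 CPM. Pooled over libraries, 258 counts stood against 7, a ratio of 32.4 with a 95% exact interval of 15.5 to 81.4 (adjusted p = 4.52e-08 by edgeR).

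Igfbp3 (chr11:7206086-7213923, minus strand) encodes the main carrier of IGFs in serum. Its counts were 198, 252 and 285 in the labelled WT wells and 1004, 1206 and 1003 in the labelled KO wells. The level went from 7.59 ± 1.31 CPM (SD, n = 3) to 29.2 ± 1.04 CPM, a log2 fold change of 1.94 ± 0.09 (SE, adjusted p = 1.29e-09 by edgeR).

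Igfbp4 (chr11:99041244-99054392, plus strand), a binding protein that restrains IGF action and is the best known substrate of PAPP-A, was among the most abundant genes of the family. It had 6053, 6699 and 5896 counts against 11410, 13332 and 10356. The mean level was 193 ± 7.67 CPM (SD, n = 3) in the labelled WT group and 319 ± 4.4 CPM in the labelled KO group, with a log2 fold change of 0.73 ± 0.03 (SE, adjusted p = 1.67e-09 by edgeR). The rise was smaller than those of Igfbp2 and Igfbp3.

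Igfbp5 (chr1:72857932-72874884, minus strand), which binds extracellular matrix as well as IGFs, was the binding protein gene that fell. Its counts were 6160, 6819 and 6530 in the labelled WT wells and 2901, 3205 and 2758 in the labelled KO wells. The mean levels were 202 ± 4.36 CPM (SD, n = 3) and 80.8 ± 3.46 CPM, a log2 fold change of -1.32 ± 0.04 (SE, adjusted p = 1.42e-11 by edgeR). Igfbp2 and Igfbp5, whose promoters are shown above, are neighbours on the chromosome and moved in opposite directions.

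Igfbp6 and Igfbp7 were higher in every library labelled KO without reaching the fold limit. Igfbp6 (chr15:102144362-102149511, plus strand), whose product prefers IGF2 over IGF1, had 94, 100 and 117 counts against 174, 192 and 140. Its log2 fold change was 0.51 ± 0.12 (SE, adjusted p = 0.00215 by edgeR), and without WT replicate 3 it passed the fold limit at 0.62. Igfbp7 (chr5:77349240-77408041, minus strand), which encodes a secreted relative of the IGFBPs with low affinity for IGFs, had 5350, 5326 and 5002 counts against 7634, 8018 and 6405. Its level was 162 ± 7.52 CPM (SD, n = 3) against 201 ± 12.9 CPM, with a log2 fold change of 0.31 ± 0.05 (SE, adjusted p = 9.33e-05). The exons of Polr2b, on the opposite strand, overlap 7.03% of its exonic bases, and Polr2b had a log2 fold change of -0.21 ± 0.04 (adjusted p = 4.46e-04), under the fold limit. If the counting did not use strand, reads of the shared bases cannot be told apart.

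Pappa (chr4:65124174-65357509, plus strand), the protease gene, was near the lower limit of detection. It had 12, 11 and 15 counts in the labelled WT wells and 19, 32 and 23 in the labelled KO wells. The levels were 0.394 ± 0.0713 CPM (SD, n = 3) and 0.667 ± 0.118 CPM, with a log2 fold change of 0.77 ± 0.27 (SE, adjusted p = 0.0269 by edgeR) and a pooled count ratio of 1.71 (95% exact interval 1.14 to 2.6). This call was lost in DESeq2 (adjusted p = 0.132). It was also lost without labelled WT replicate 1 or 2 (adjusted p = 0.0637 and 0.104) and without labelled KO replicate 2 or 3 (adjusted p = 0.113 and 0.0568), with log2 fold changes between 0.64 and 0.75. Its paralogue Pappa2 was at 13 CPM in the labelled WT wells and 13.3 CPM in the labelled KO wells, with a log2 fold change of 0.04 ± 0.07.

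**Figure D2:**
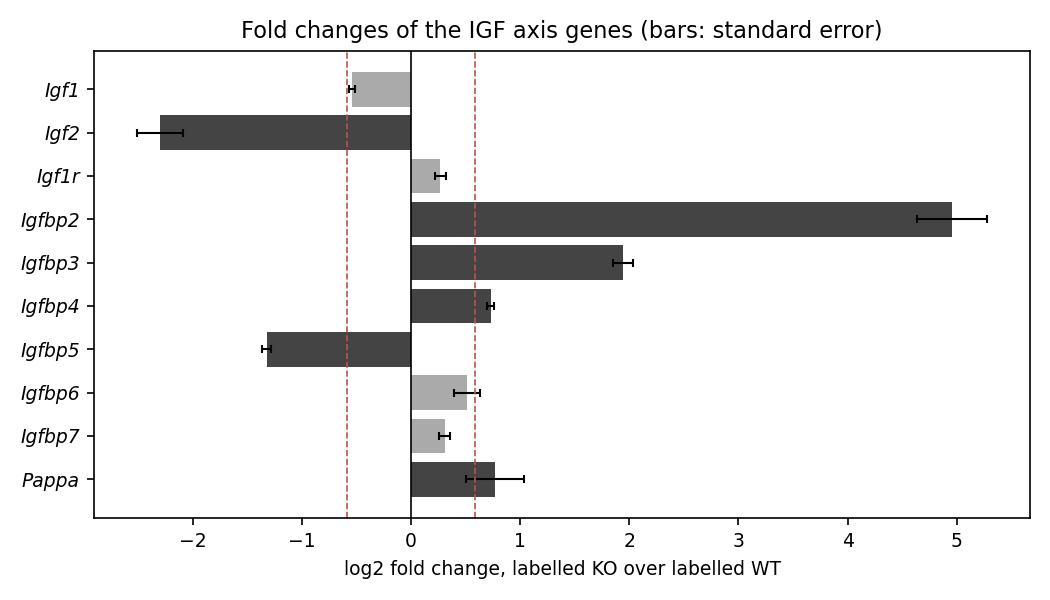
Log2 fold change of the labelled KO over the labelled WT libraries for each IGF axis gene, with standard errors; dashed lines mark the fold limit of 1.5 and dark bars genes past both limits. Igfbp2 (4.96) and Igf2 (-2.30) lie farthest from 0, and the standard error of Pappa reaches inside the fold limit.

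Levels were compared between genes as CPM per kilobase of exon. In the labelled WT wells the order was Igfbp7 at 134 ± 6.22 CPM per kilobase (SD, n = 3), Igfbp4 at 43.6 ± 1.74, Igfbp5 at 33.6 ± 0.727, Igf1 at 13.4 ± 0.0784 and Igf1r at 11.7 ± 0.644. Farther down this order stood Igfbp6 at 2.89 ± 0.349, Igfbp3 at 2.42 ± 0.417, Igf2 at 0.439 ± 0.0462, Igfbp2 at 0.0389 and Pappa at 0.0357 CPM per kilobase. Igfbp6 and Igfbp3, and likewise Igfbp2 and Pappa, overlapped between libraries, and the other neighbours in the order did not. In the labelled KO wells, Igfbp7 at 166 ± 10.7 and Igfbp4 at 72.2 ± 0.997 CPM per kilobase again led. Igf1r (14.1 ± 0.973) and Igfbp5 (13.5 ± 0.576) overlapped next, Igfbp3 (9.34 ± 0.334) and Igf1 (9.17 ± 0.284) overlapped below them, and Igf2 (0.0877) and Pappa (0.0605) overlapped at the bottom. Between these groups lay Igfbp6 at 4.13 ± 0.303 and Igfbp2 at 1.28 CPM per kilobase.

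As a share of the summed binding protein transcripts per kilobase, Igfbp5 was lower in the labelled KO wells, and Igfbp4, Igfbp3 and Igfbp2 were higher. Igfbp5 made up 14.7%, 15.7% and 16.1% in the labelled WT wells and 4.88%, 4.95% and 5.34% in the labelled KO wells. Igfbp4 went from 20.1% ± 0.735 (SD, n = 3) to 27.1% ± 0.96, Igfbp3 from 1.12% ± 0.22 to 3.51% ± 0.25, and Igfbp2 from 0.0181% ± 0.00897 to 0.483% ± 0.0767. None of these shares overlapped between groups, and each gave p = 0.1 in the exact permutation test, the smallest possible here. The shares are built from the levels of the same genes tested above. Their separation therefore restates those changes and is no further test. Igfbp7 kept the largest share, at 61.9% ± 1.4 and 62.3% ± 1.27 (exact p = 0.5), a difference whose sign depended on the gene length and library used, and Igfbp6 had 1.34% ± 0.19 and 1.55% ± 0.0734 (exact p = 0.2).

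**Figure D3:**
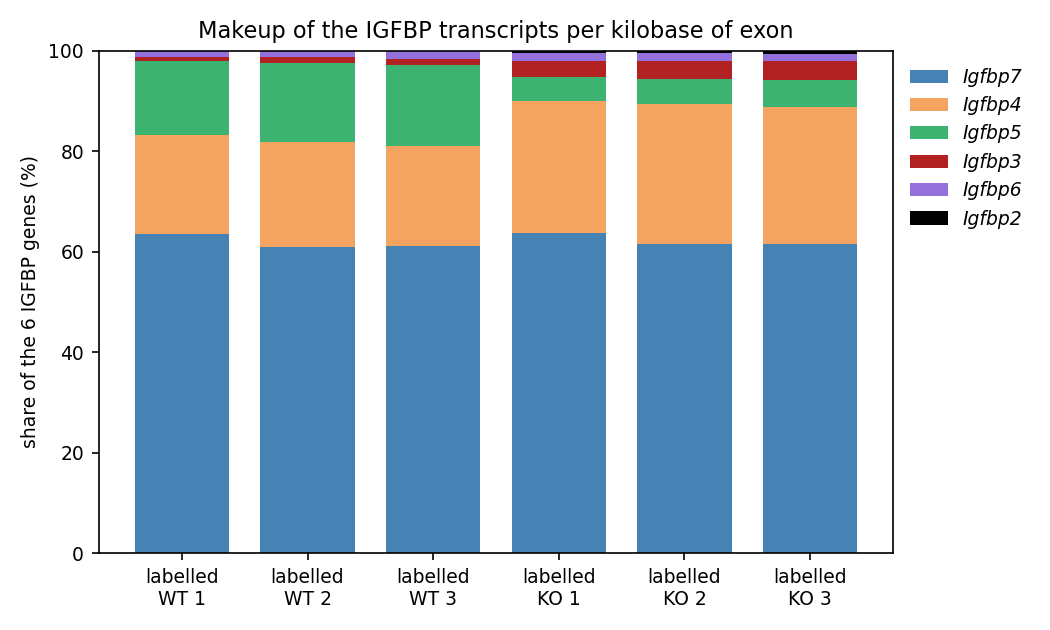
Share of each of the 6 IGFBP genes (percent of their summed CPM per kilobase of exon) in each of the 6 libraries. Igfbp7 takes the largest part of every bar, while the Igfbp5 part is 15.5% on average in the labelled WT wells and 5.05% in the labelled KO wells.

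The sum of the 6 genes was 217 ± 5.4 CPM per kilobase (SD, n = 3) in the labelled WT wells and 266 ± 11.6 in the labelled KO wells. Relative to Igf1, this sum was 16.7, 16.1 and 15.9 in the labelled WT wells and 29.7, 29.2 and 28.2 in the labelled KO wells. The ratio of Igfbp5 to Igfbp4 was 0.77 ± 0.0381 against 0.187 ± 0.00954. All 3 quantities separated the groups, with an exact permutation p of 0.1 each. Igfbp4 and Igfbp7 were higher and Igfbp5 and Igf1 lower in every library labelled KO. The separation therefore restates the changes of single genes and is no further test.

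The rest of the pathway was read in 5 lists of 94 genes, of which 71 were measured and tested. Of these, 19 changed (26.8%, beside 17.7% of all genes), 14 upward and 5 downward, and the median log2 fold change of the 71 genes was -0.01. Among 8 other IGF family and IGFBP-like genes, 4 rose and none fell, with a median of 0.84, beside 11.6% upward and 6.10% downward among all genes. H19, the imprinted noncoding RNA that shares regulatory elements with Igf2 and lies 72623 bases from it, had 10, 10 and 12 counts against 942, 1123 and 893, a log2 fold change of 6.33 ± 0.10 (SE, adjusted p = 1.06e-13 by edgeR). H19 rose and Igf2 fell in the same wells. The other 3 that rose encode matricellular proteins with an IGFBP-like domain, Ccn1 (1.31 ± 0.05), Ccn2 (1.11 ± 0.15) and Ccn3 (2.17 ± 0.09). Their relatives Ccn4 (-0.28 ± 0.03) and Ccn5 (0.56 ± 0.05), in the same list, did not pass the fold limit.

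Of 9 genes for IGFBP proteolysis and its inhibitors, 3 rose and 1 fell (median log2 fold change 0.37), beside 11.6% upward and 6.10% downward among all genes. Stc2, which encodes an inhibitor of PAPP-A, had 20, 30 and 24 counts against 100, 121 and 84 and rose by 1.85 ± 0.17 on the log2 scale (adjusted p = 1.08e-06 by edgeR). Its level was 0.762 ± 0.129 CPM (SD, n = 3) in the labelled WT wells and 2.76 ± 0.189 CPM in the labelled KO wells. Stc1, a relative of Stc2 in the same list, did not pass the test (-0.10 ± 0.31, adjusted p = 0.812 by edgeR). Htra1, a secreted serine protease that cleaves IGFBPs, rose by 0.62 ± 0.04 and the metalloprotease gene Adam12 by 0.59 ± 0.04, both close to the fold limit. The call of Htra1 was lost without labelled KO replicate 1 (0.57), and that of Adam12 without labelled WT replicate 2 (0.58) or labelled KO replicate 1 or 3 (0.58 and 0.56). The matrix metalloprotease gene Mmp3 fell by 0.98 on the log2 scale (SE 0.10).

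Among 17 receptors and adaptors, 2 rose and 1 fell, a share close to the 17.7% of all genes, and the median log2 fold change was -0.05. Besides Igf2r, these were Irs2, an insulin receptor substrate (0.67 ± 0.03, SE), and Grb14, an adaptor that inhibits insulin receptor signalling (0.75 ± 0.05). Irs1, a relative of Irs2, did not pass the fold limit, at -0.45 ± 0.05. Of 25 genes of the PI3K, AKT and FOXO branch, 2 rose, 1 fell and 22 did not pass the limits (median -0.09), a share below the 17.7% of all genes. Pik3cb, a catalytic subunit of PI3K, rose by 0.73 ± 0.04. Of the 4 FOXO factor genes, 1 rose and 1 fell. Foxo6 had 12, 9 and 13 counts against 164, 205 and 131 and rose by 3.67 ± 0.19, and Foxo4 fell by 0.73 on the log2 scale (SE 0.04). Foxo1 (0.39 ± 0.05) and Foxo3 (-0.09 ± 0.04) did not pass the limits.

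Of 12 genes for IGF mRNA binding and upstream regulators, 3 rose and 2 fell (median 0.14), beside 11.6% upward and 6.10% downward among all genes. Plagl1, an imprinted zinc finger factor known to act on the Igf2 and H19 domain, had 26, 41 and 58 counts in the labelled WT wells and 11314, 13942 and 12052 in the labelled KO wells. Its log2 fold change of 8.03 ± 0.11 (SE, adjusted p = 2.64e-14 by edgeR) was the largest of the 71 genes. Peg3, another imprinted zinc finger gene, rose by 0.79 ± 0.05, and Wt1, also one of the mesothelial markers above, by 1.83 ± 0.13. Igf2bp3, which encodes a protein that binds IGF2 mRNA, fell by 0.68 on the log2 scale (SE 0.05) and the chromatin protein gene Hmga1 by 1.14 (SE 0.12). The growth hormone receptor gene Ghr, upstream of Igf1 in many tissues, differed by 0.15 ± 0.04 (adjusted p = 0.00503), under the fold limit.

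**Figure D4:**
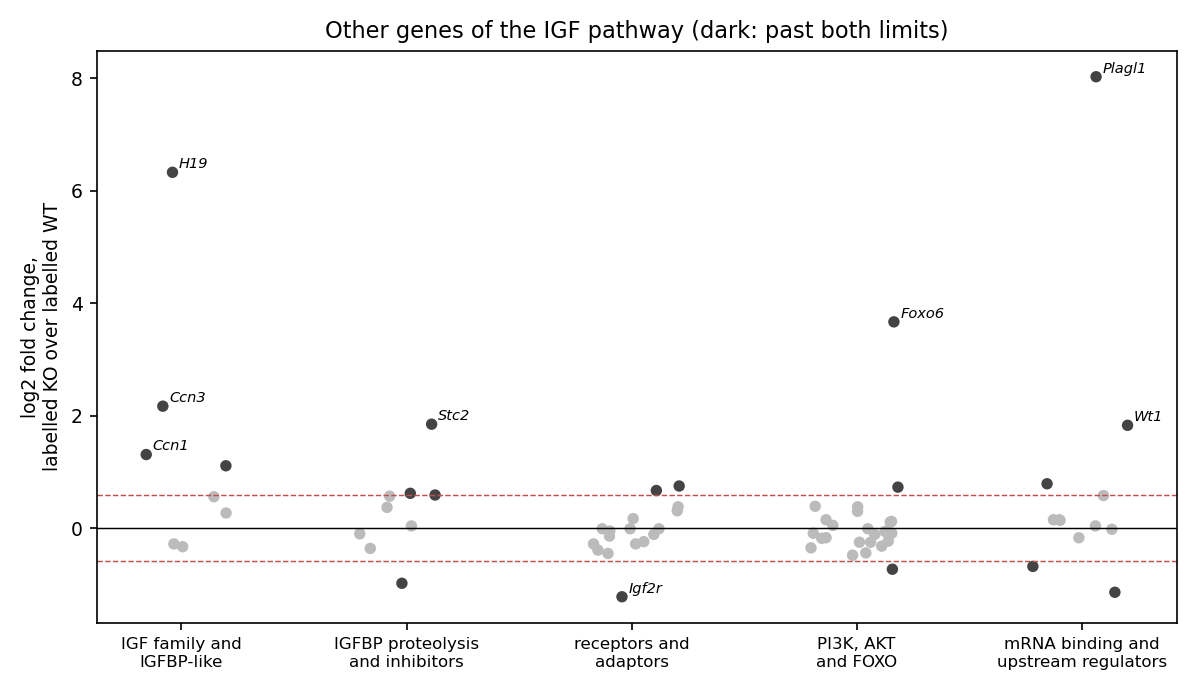
Log2 fold change of the labelled KO over the labelled WT libraries for 71 other genes of the IGF pathway in 5 lists; each point is a gene, dark points passed both limits, dashed lines mark the fold limit of 1.5, and horizontal placement within a list is arbitrary. Most points lie between the dashed lines, with Plagl1 at 8.03 and H19 at 6.33 farthest above and Hmga1 at -1.14 and Igf2r at -1.22 farthest below.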

How the data were processed

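RNA of 6 wells was sequenced as polyadenylated libraries. The authors deposited raw counts of reads per gene, without normalization, and a table of voom (limma) values on the log2 CPM scale. The submitters' processing notes name STAR 2.7.2b, featureCounts, limma and the build GRCm38.p6, and whether counting used strand is not given in the sources used here. Both tables list 14831 genes, of which 1165 have no symbol in them. Positions and exon lengths are from GENCODE M21, where 14822 identifiers matched without their version and 14515 with it, and promoter windows are from RefSeq.

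Libraries were numbered within a group in the order of their records, and the groups given by the genotype labels were compared with edgeR 4.0.16 in R 4.3.3 (TMM scaling, filterByExpr, quasi-likelihood F test), which tested 14289 genes. A change required a Benjamini-Hochberg adjusted p under 0.05 and 1.5-fold. Standard errors were taken from the log2 fold change and its F statistic. Shares and ratios per library were compared by two-sided exact permutation tests. No pair of libraries within a group differed by less than sampling noise (chi-square per degree of freedom 2.468 to 7.526). On simulated counts of 14108 genes with 200 changed by 1 on the log2 scale, edgeR recovered 99% with 3 false calls. The changed genes were drawn only from those above a minimum mean count, so this recovery does not cover genes with few reads such as Pappa. The simulation also changed a smaller part of the genes than the 17.7% called in the data. Alternatives were scaling by RLE, by upper quartiles or by total counts, other filters and fold limits, DESeq2 1.42.0, limma 3.58.1 (voom on the counts, and on the deposited log2 values), other gene lengths and leaving out each library.

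The members and lists were chosen with earlier results of these data known. The text names all members, Gli2 and Gli3, up to 4 changed genes in each direction of each list and the receptors in the lists, with Polr2b for its overlapping exons. Pappa2, Stc1, Irs1, Foxo1, Foxo3, Ccn4, Ccn5, the marker Sox9 and the neighbouring genes in the closing section were named after their values were seen.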

Additional observations from a re-analysis of the deposited data

How the results depend on the processing

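The directions of the 10 members, Gli2 and Gli3 were kept under every alternative run. Log2 fold changes ranged from 4.63 to 5.17 for Igfbp2, from 1.83 to 2.07 for Igfbp3, from 0.69 to 0.78 for Igfbp4, from -1.34 to -1.26 for Igfbp5, from -2.46 to -2.10 for Igf2 and from 0.64 to 0.91 for Pappa. Igfbp2 was not tested under the filter of at least 10 counts per library. The number of members changed was 10 without a fold limit and 5 to 7 when leaving out single libraries. The number of other pathway genes changed was 54 without a fold limit, 10 at 2-fold and 17 to 22 with libraries left out, and that of all genes 8391, 1456 and 2501 to 2618. Insr, which did not pass the test, changed sign to 0.04 with upper-quartile factors, and to 0.02 with total counts, without the third library labelled WT and without the first labelled KO, and leaving out single libraries gave -0.06 to 0.02. The median of all genes moved by at most 0.06 with another scaling. Differences in binding protein share, in percentage points, were 0.62 for Igfbp2 and 2.89 for Igfbp3 with the longest annotated transcript as length. The Igfbp7 difference turned sign there (-0.729), without labelled WT replicate 2 (-0.073) and without labelled KO replicate 1 (-0.332), and reached 1.21 without labelled WT replicate 1. Without a length correction they were 0.36 for Igfbp2, 3.26 for Igfbp3, 16.1 for Igfbp4, -22.8 for Igfbp5 and 2.93 for Igfbp7, against 0.465, 2.39, 6.98, -10.4 and 0.402 with summed exon length. No paired analysis was possible because the labels carry no replicate numbers. Igfbp2 in the labelled WT wells, Pappa and Igf2 rest on few reads, and depth limits their fold changes.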

Other observations

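Within 500 kb of the members, 75 other genes were tested. Of these, 12 rose (16%) and none fell, beside 11.6% upward and 6.10% downward among all genes. Around Igf2, besides H19, these were Trpm5, an ion channel gene with 0, 2 and 0 counts in the labelled WT wells and 86, 114 and 65 in the labelled KO wells, and Ifitm10 (1.26 ± 0.28 on the log2 scale, SE). Top2a, the DNA topoisomerase gene of dividing cells, lies 17055 bases from Igfbp4 and rose by 1.56 ± 0.08. Cdc6, a DNA replication licensing gene, rose by 0.74 ± 0.12 in the same region. Espl1, which encodes the protease separase, rose by 1.32 ± 0.07 at 146755 bases from Igfbp6. Astn2, next to Pappa at 23294 bases, had 100, 181 and 182 counts against 631, 716 and 574. Parpbp near Igf1 had 104, 77 and 88 counts against 392, 393 and 302. These distances and values are descriptions, and no relation between a member and its neighbours was tested.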
